A study of Mus musculus with 48 samples.

Results

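The response of GABA-CB1-KO mice to a brief exposure to a new environment was examined in 11 of the 48 libraries of the series, as open field minus basal across all expressed genes. The 11 libraries were chosen by their labels alone: 5 were from the open field group and 6 from the basal group. The GABA-CB1-KO line carries floxed alleles of Cnr1, the gene of the cannabinoid receptor CB1 (CB1f/f), together with Cre recombinase under regulatory elements of dlx5/6, so CB1 was deleted from forebrain GABAergic neurons in both groups. By their labels the groups differ in state. All mice were males of 8 to 10 weeks. Mice of the open field group explored an open field arena for 5 minutes and the tissue was isolated an hour later, whereas mice of the basal group were taken from the home cage. The tissue was the Cornu Ammonis (CA) of the hippocampus left after removal of the dentate gyrus, each library is 1 mouse, and no mouse was measured in both states. The mice that were sequenced had been selected by the study for purity of the tissue, for their behavior in the arena and for induced neuronal activity measured as Arc mRNA. Arc is therefore not independent of that choice, and other genes induced by neuronal activity may not be either. As the tissue was measured in bulk, a change in the number of cells of a type and a change in the RNA per cell cannot be told apart.

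Neuronal activity opens calcium channels and NMDA receptors, and the calcium and kinase signals that follow switch on immediate early genes within minutes, through factors such as CREB and SRF that are already bound to their promoters. The first genes to respond encode transcription factors of the Fos, Egr and Nr4a families, and others encode proteins that act at the synapse, such as Arc. In the hippocampus these transcripts are widely used as marks of recently active cells, for example after exploration of a new place. CB1 sits on axon terminals, where endocannabinoids released by the postsynaptic cell reduce the release of GABA, and most CB1 of the hippocampus is found on a class of GABAergic interneurons.

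Reads counted on genes numbered between 25892654 and 32310409 per basal library and between 28393539 and 31596257 per open field library, and levels are given in CPM, counts scaled to the size of the library, with TMM normalization over all 48 libraries. Cnr1 was measured at 141 to 158 CPM in the basal and 100 to 155 CPM in the open field GABA-CB1-KO libraries, and all 11 lay below the GABA-CB1-WT libraries, which held 311 to 394 CPM. Some libraries stood apart within their group. Basal replicate 3 had the fewest counts and a TMM factor of 0.929, against 0.987 to 1.03 in the other 10. Its chi-square per degree of freedom, a measure of how far the counts of a pair of libraries differ, was 116 to 121 against the other basal libraries. Among those others it was 2.59 to 9.77, and the source of this was not tested. Open field replicate 4 held the choroid plexus transcript Ttr at 3847 CPM against at most 52.7 CPM in the other 10, and the first principal component, with 34.5% of the variance of the 500 most variable genes, set it apart from the rest. Basal replicate 2 and open field replicate 3 held Xkr4 at 4.01 and 4.14 CPM against at least 19.7 CPM in the other 9, a split that the second component (19.5%) followed and that 15 libraries of the series share. Basal replicate 5 held immediate early genes at open field levels, as described with each gene.

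After the open field, immediate early genes of the Fos and Egr families were higher in mean in GABA-CB1-KO mice, but no gene passed the test. With edgeR's quasi-likelihood test, 0 of 15081 genes (0%) had an adjusted p under 0.05, and the smallest adjusted p was 0.239. At an unadjusted p under 0.05 there were 1831 genes (12.1%), of which 967 were higher (6.41%) and 864 lower (5.73%) in the open field libraries. DESeq2 called 63 of 13636 genes (0.462%), 41 higher and 22 lower, and the median log2 fold change over all genes was 0.00. In 106 genes (0.703%) every open field library lay above every basal library, and in 84 (0.557%) every one lay below.

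The test depended on a single basal library. Without basal replicate 5, edgeR called 10 of 15031 genes (0.0665%), all of them higher in the open field libraries, and 4 of these were immediate early genes. Egr2 had the largest difference of the 10 (log2 fold change 2.83, adjusted p = 0.000248), followed by Fos (2.14, adjusted p = 0.00795), Fosb (1.45, adjusted p = 0.00795) and Egr1 (0.89, adjusted p = 0.00795). The library left out held the highest basal value of each of these 4 genes. Its removal therefore raises their differences and narrows their basal spread by construction. These p-values describe how the test depended on that library and are not further support for a response. The other 6 had log2 fold changes of 0.24 to 0.33: P4ha1 (prolyl hydroxylase of collagen), Otub2 (a deubiquitinase), Gpt2 (alanine transaminase), Fmnl1 (a formin that acts on actin), Prkab2 (a regulatory subunit of AMP-activated kinase) and Pfkfb3 (a regulator of glycolysis). The count of calls was 0 without any one of the other 5 basal libraries, and 0 or 1 without any one of the open field libraries.

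The sequences before the start sites of 3 of the activity genes and of Sgk1 are shown because they carry the letters through which activity and glucocorticoid signals are known to act. They were taken from RefSeq on GRCm38.p6, the assembly behind mm10, and run 5′ to 3′ over the 250 bases before the start. Capitals mark TGACG on either strand (the half-site that CREB binds) in Egr2, Fos and Fosb, also the CArG box bound by SRF in Egr2 and TATAAA on the gene's strand in Fos, and the glucocorticoid response element (AGAACA, any 3 bases and TGTTCT) in Sgk1. Egr2 and Sgk1 have 5 and 6 start sites in the table, and the one with the most matches is shown.
Egr2, chr10:67537619-67537868, plus strand: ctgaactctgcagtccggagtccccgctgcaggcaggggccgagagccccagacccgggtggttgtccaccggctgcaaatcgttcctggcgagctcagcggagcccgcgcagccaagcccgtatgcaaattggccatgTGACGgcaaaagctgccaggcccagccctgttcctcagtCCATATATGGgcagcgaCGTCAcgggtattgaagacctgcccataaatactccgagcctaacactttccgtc
Fos, chr12:85473640-85473889, plus strand: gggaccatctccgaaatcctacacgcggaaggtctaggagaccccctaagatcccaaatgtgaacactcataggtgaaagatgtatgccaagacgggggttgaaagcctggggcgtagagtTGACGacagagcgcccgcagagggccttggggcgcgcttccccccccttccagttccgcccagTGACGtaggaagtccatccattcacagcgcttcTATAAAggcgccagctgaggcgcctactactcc
Fosb, chr7:19310046-19310295, minus strand: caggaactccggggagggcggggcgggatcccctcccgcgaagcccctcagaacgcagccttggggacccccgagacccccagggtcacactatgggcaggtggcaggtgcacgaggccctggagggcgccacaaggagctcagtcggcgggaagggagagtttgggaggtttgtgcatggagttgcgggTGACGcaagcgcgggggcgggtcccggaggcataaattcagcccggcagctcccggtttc
Sgk1, chr10:21993640-21993889, plus strand: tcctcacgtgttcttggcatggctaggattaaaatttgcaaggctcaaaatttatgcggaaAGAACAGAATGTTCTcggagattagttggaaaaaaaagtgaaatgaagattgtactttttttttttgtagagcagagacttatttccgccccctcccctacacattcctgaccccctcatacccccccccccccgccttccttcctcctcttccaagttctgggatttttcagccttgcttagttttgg

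TGACG was present on either strand in 23 of 31 windows (74.2%) of the 22 activity-regulated transcription factors with an entry, counted from 250 bases before to 50 bases after the start, and in 6837 of 32851 windows of all genes (20.8%). The CArG box was found in 5 of the 31 windows, those of Egr2 and Srf, against 1.63% of all windows. The glucocorticoid response element, searched on both strands, was found in 3 of all windows (0.00913%), and 1 of these was that of Sgk1. TATAAA on the gene's strand was present in 2 of the 31 windows (6.45%) and in 8.32% of all windows. These are counts of letters in a fixed window and not sites shown to be bound.

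Egr2, a zinc finger transcription factor (mm10 chr10:67537869-67542188), had the largest log2 fold change of the 28 activity-regulated transcription factors. Its level was 6.83, 7.98, 5.19, 9.81 and 10.2 CPM in open field replicates 1 to 5, and 0.803 at the lowest, 1.26 at the median and 9.71 CPM at the highest in the basal libraries. The highest basal value was that of replicate 5, and the other 5 basal libraries, at most 1.47 CPM, lay below every open field library. Over all 11 libraries the log2 fold change was 1.64 (95% confidence interval 0.46 to 2.82, adjusted p = 0.315 by edgeR).

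Fos, the partner of Jun proteins in the AP-1 factor (chr12:85473901-85477270), was measured at 7.35, 9.87, 6.42, 14.6 and 10.6 CPM in open field replicates 1 to 5. Its basal level was 1.16 CPM at the lowest, 2.65 at the median and 9.65 at the highest, again in replicate 5. The groups overlapped through that library alone, since the next basal value was 2.88 CPM. This gave a log2 fold change of 1.49 (95% confidence interval 0.61 to 2.38, adjusted p = 0.272 by edgeR).

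Fosb, a second AP-1 gene (chr7:19302696-19310045), held 5.11, 7.42, 7.51, 9.81 and 9.37 CPM in open field replicates 1 to 5, against 2.51 at the lowest, 2.79 at the median and 9.07 CPM at the highest in the basal group. Without replicate 5 the highest basal value was 3.82 CPM and the groups did not overlap. The log2 fold change was 1.01 (95% confidence interval 0.33 to 1.68, adjusted p = 0.30 by edgeR). Egr1 (chr18:34861207-34864956), a zinc finger factor used widely to mark active neurons, was measured at 146, 163, 138, 201 and 184 CPM in open field replicates 1 to 5. Its basal level was 75.8 CPM at the lowest, 93.4 at the median and 152 at the highest, so that basal replicate 5 exceeded 2 open field libraries and the other basal libraries, at most 102 CPM, exceeded none. Egr1 thus had a log2 fold change of 0.73 (95% confidence interval 0.40 to 1.07, adjusted p = 0.239 by edgeR).

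**Figure D1:**
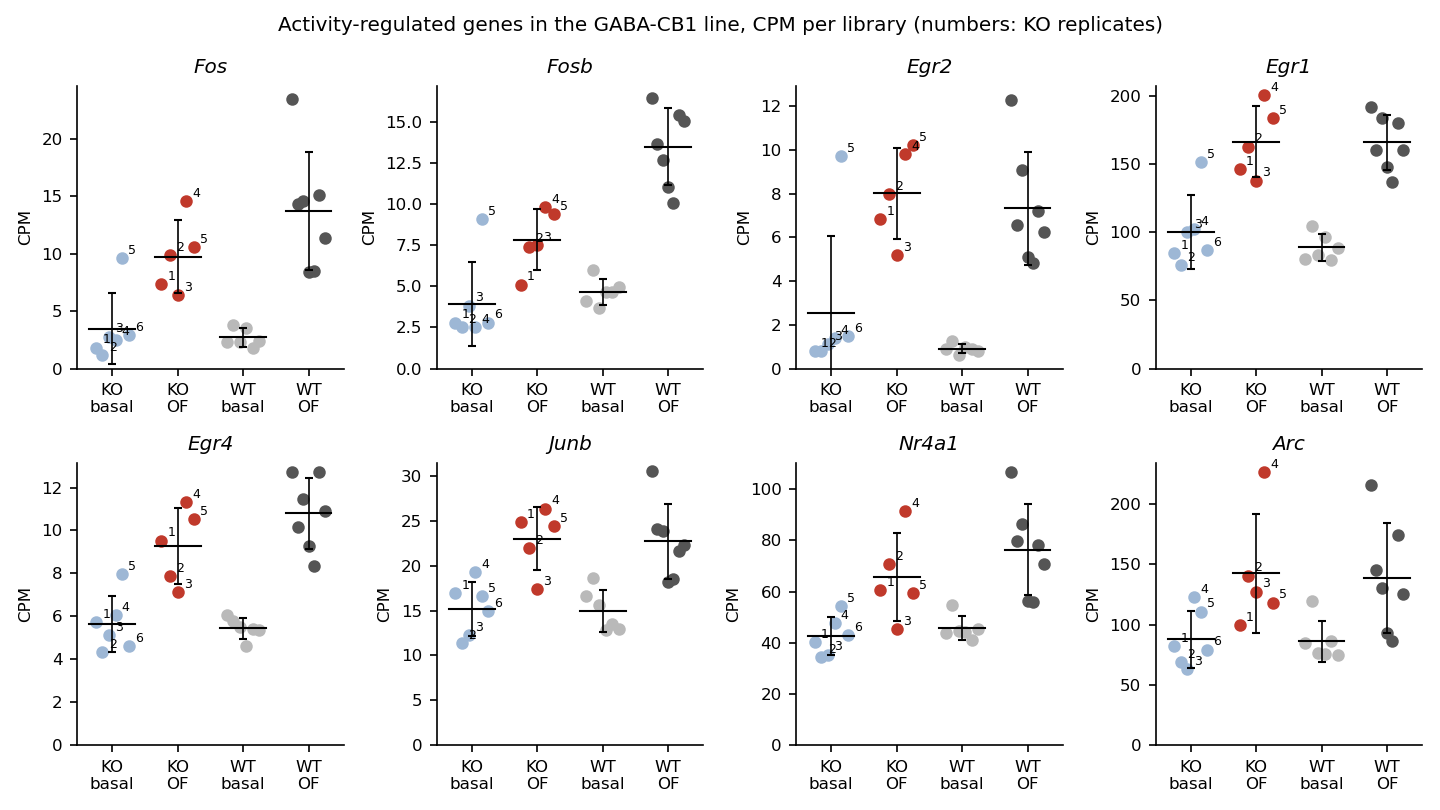
Levels of 8 activity-regulated genes (CPM, 1 panel per gene) in each library of GABA-CB1-KO and GABA-CB1-WT mice in the basal and open field (OF) states, with the mean and SD of each group. Basal replicate 5 of GABA-CB1-KO lies among the open field libraries for Egr2 (9.71 CPM), Fos (9.65 CPM) and Fosb (9.07 CPM).

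The level of these genes in basal replicate 5 was also high for the series as a whole. Egr2 ranged from 0.412 to 1.90 CPM in the 23 other basal libraries of the 4 genotypes, Fos from 1.16 to 5.07 CPM, Fosb from 2.51 to 8.11 CPM and Egr1 from 66.1 to 114 CPM, and basal replicate 5 lay above each of these ranges. Among the 6 GABA-CB1-KO basal libraries it was the highest in 17 of 28 activity-regulated transcription factors, in 13 of 29 activity-regulated effectors and in 10 of 14 feedback genes of the MAPK and growth factor pathways. Among all 24 basal libraries it was the highest in 10, 6 and 5 of them. Over all genes tested it was the highest of the 6 in 3158 of 15081. It was also the highest of the 6 in 11 of 11 oligodendrocyte and 7 of 7 ependyma markers. Its counts on genes (30755680) lay within the range of the other libraries.

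Other activity-regulated transcription factors had smaller log2 fold changes. Egr4, of the same zinc finger family (chr6:85511122-85513542), held 9.53, 7.89, 7.12, 11.3 and 10.5 CPM in open field replicates 1 to 5, against 4.32 at the lowest, 5.42 at the median and 7.98 CPM at the highest in the basal group. Basal replicate 5 exceeded open field replicates 2 and 3, and no other basal library reached an open field value. Egr4 had a log2 fold change of 0.72 (95% confidence interval 0.38 to 1.06, adjusted p = 0.262 by edgeR and 0.00683 by DESeq2).

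Junb, an AP-1 gene (chr8:84976909-84978748), was measured at 24.9, 22, 17.4, 26.4 and 24.5 CPM in open field replicates 1 to 5, and at 11.3 at the lowest, 15.8 at the median and 19.3 CPM at the highest in the basal group. The groups overlapped only through open field replicate 3, and here the highest basal library was replicate 4. Its log2 fold change was 0.60 (95% confidence interval 0.31 to 0.88, adjusted p = 0.27 by edgeR and 0.00733 by DESeq2), and it was 0.62 without basal replicate 5. Nr4a1, an orphan nuclear receptor, had a log2 fold change of 0.63 (95% confidence interval 0.29 to 0.97), with 45.3 to 91.6 CPM in the open field and 34.5 to 54.2 CPM in the basal libraries.

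Of the 28 activity-regulated transcription factors tested, 23 were higher and 5 lower in mean in the open field libraries, with a median log2 fold change of 0.21. None passed the adjusted threshold in edgeR. At an unadjusted p under 0.05, 13 were higher and 1 lower, beside 6.41% and 5.73% of all genes. The 13 included Srf (0.21), which switches on immediate early genes, Bhlhe40 (0.18), a repressor of the clock, and Nr4a3 (0.22), and the 1 lower was Klf6 (log2 fold change -0.14). With all libraries, 0 of the 28 lay above every basal library. Without basal replicate 5, 4 of the 28 passed and 8 lay above every remaining basal library, beside 1.57% of all genes. That library was the highest basal one in 17 of the 28, so leaving it out favors such counts by construction. Npas4, which neurons induce in response to calcium alone, was measured at 5.92 to 12.9 CPM in the open field and 6.55 to 8.02 CPM in the basal libraries (log2 fold change 0.29, 95% confidence interval -0.04 to 0.62).

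**Figure D2:**
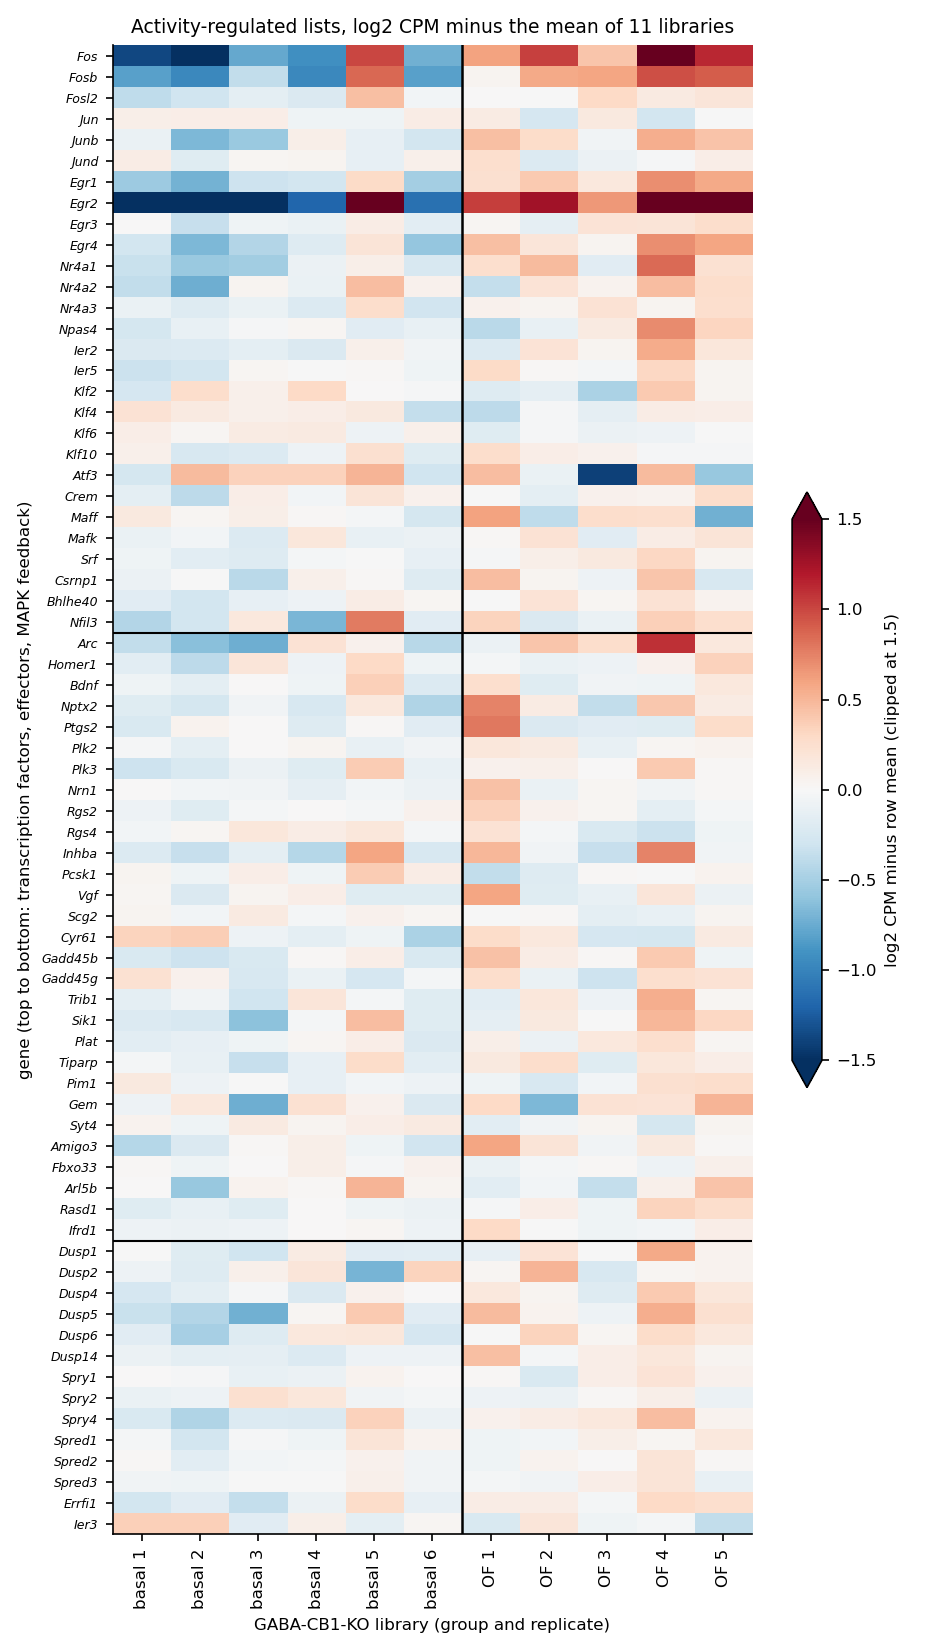
Levels of 71 activity-regulated and feedback genes (rows) in the 6 basal and 5 open field GABA-CB1-KO libraries (columns), as log2 CPM minus the mean of the gene. Basal replicate 5 stands out among the basal columns, and open field replicate 4 was the highest open field library in 16 of the 28 transcription factors.

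Among the activity-regulated effectors, which act at synapses, in secretion or in signaling, 23 of 29 were higher and 6 lower in mean (median log2 fold change 0.14). At an unadjusted p under 0.05, 7 were higher and 1 lower, beside 6.41% and 5.73% of all genes, and none passed the adjusted threshold in edgeR. Arc, which removes AMPA receptors from the synapse (chr15:74669081-74672570), held 99.6, 141, 127, 226 and 118 CPM in open field replicates 1 to 5, against 63.4 at the lowest, 80.7 at the median and 122 CPM at the highest in the basal group. Open field replicate 4 was far above the rest and the groups overlapped. Arc had a log2 fold change of 0.70 (95% confidence interval 0.25 to 1.15), and 0.47 without open field replicate 4.

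Nptx2, a secreted pentraxin that gathers AMPA receptors (log2 fold change 0.42), and Gadd45b, which takes part in removal of DNA methylation (0.34), were among the 7. Nptx2 held 18.5 to 40.0 CPM in the open field and 17.4 to 26.7 CPM in the basal libraries, so the groups overlapped widely. Rasd1, a small G protein (0.24), Amigo3 (0.36), Plk2, a kinase of the synapse (0.11), and Plat, a plasminogen activator (0.16), made up the rest with Arc. The 1 effector with an unadjusted p under 0.05 in the other direction was Syt4, a synaptotagmin (log2 fold change -0.14). Bdnf, a neurotrophin, and Homer1, a scaffold of glutamate receptors, had log2 fold changes of 0.04 (95% confidence interval -0.17 to 0.25) and 0.07 (-0.17 to 0.31).

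Feedback genes of the MAPK and growth factor pathways are induced by the signals they then reduce. Of the 14 tested, 12 were higher and 2 lower in mean (median log2 fold change 0.18), and 7 were higher at an unadjusted p under 0.05, 0 lower. The 7 were the phosphatase genes Dusp1 (0.27), Dusp4 (0.22), Dusp5 (0.43), Dusp6 (0.28) and Dusp14 (0.28), the Ras pathway inhibitor Spry4 (0.30) and Errfi1, an inhibitor of EGF receptors (0.26). None passed the adjusted threshold in edgeR. Dusp14 was the only 1 of the 14 whose groups did not overlap, with every open field library above, as in 0.703% of all genes. It held 20.6, 14.7, 16.1, 16.9 and 15.4 CPM in open field replicates 1 to 5 and 13 to 14.3 CPM in the basal libraries. Without open field replicate 4 the count at an unadjusted p under 0.05 was 2 of 14 instead of 7, while over all genes the share that was higher went from 6.41% to 4.86%.

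The 9 genes of NF-kB and mRNA decay feedback had a median log2 fold change of 0.11. At an unadjusted p under 0.05, Tob2 was higher (0.25) and Tob1 lower (-0.25), beside 6.41% and 5.73% of all genes. Both Tob genes encode proteins that promote removal of the poly(A) tail.

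Exposure to a new place is also known to raise corticosterone, of which the study reports no level. Genes known to be induced by glucocorticoids were mostly higher in mean, and the cause was not tested. Of 18 tested, 15 were higher and 3 lower in mean, with a median log2 fold change of 0.24 (0.15 without open field replicate 4). At an unadjusted p under 0.05, 7 were higher, beside 6.41% of all genes, and without open field replicate 4 the count was 3, beside 4.86%. None passed the adjusted threshold in edgeR. Sgk1, a kinase that regulates ion channels and has the response element in 1 of its promoter windows, was measured at 146, 105, 103, 171 and 129 CPM in open field replicates 1 to 5, against 68.5 at the lowest, 94.1 at the median and 104 CPM at the highest in the basal group. Only basal replicate 4 reached the lowest open field library. The log2 fold change of Sgk1 was 0.52 (95% confidence interval 0.24 to 0.81, adjusted p = 0.27 by edgeR).

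Fkbp5, a co-chaperone that reduces the affinity of the glucocorticoid receptor, had a log2 fold change of 0.19 (95% confidence interval 0.06 to 0.32), with 77.5 to 99.3 CPM after the open field and 71.2 to 85.8 CPM at rest. Per1, of the circadian clock and itself induced by glucocorticoids, had 0.26 (0.04 to 0.48). Plin4, which coats lipid droplets, had the largest value of the list at 1.24, but its open field values of 3.25, 3.52, 9.61, 12.8 and 1.6 CPM ran far apart and overlapped the basal range of 1.07 to 5.5 CPM. Cdkn1a, an inhibitor of the cell cycle, had 0.68, and 0.29 without open field replicate 4. Of 19 clock genes, 10 were higher and 9 lower in mean, and 2 in each direction had an unadjusted p under 0.05 (Per1 and Bhlhe40 higher, Npas2 and Rorb lower). The shares over all genes were 6.41% higher and 5.73% lower. Without open field replicate 4, 0 clock genes were higher and 2 lower at that threshold, beside 4.86% and 4.2% of all genes.

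Chaperones were higher in mean in 15 of 17 genes (median log2 fold change 0.20), and 10 were higher and 0 lower at an unadjusted p under 0.05 (6.41% and 5.73% of all genes), again with none past the adjusted threshold in edgeR. Of the 10, 6 act in the endoplasmic reticulum (Hspa5, Pdia4, Pdia6, Creld2, Sdf2l1 and Manf). Hspa5, the main chaperone there, held 221, 226, 304, 327 and 250 CPM in open field replicates 1 to 5 and 194 to 238 CPM in the basal libraries, the highest of which was replicate 5. Open field replicates 3 and 4 stood well above the other libraries, and the log2 fold change was 0.35 (95% confidence interval 0.15 to 0.56). Xbp1, the transcription factor that induces these genes, named here after its values were seen, was measured at 64.7, 60.0, 78.3, 77.1 and 65.2 CPM in open field replicates 1 to 5 and 54.9 to 62.4 CPM in the basal libraries (0.28). Replicates 3 and 4 were the highest here too. Without open field replicate 4, 5 of the 17 chaperones were higher at an unadjusted p under 0.05, beside 4.86% of all genes. Basal replicate 5 was the highest basal library in 14 of the 17, beside 3158 of all 15081 genes. Hspa1b, a heat shock protein of the cytosol, lay above without overlap, as in 0.703% of all genes (3.14 to 4.07 CPM basal, 4.11 to 5.85 CPM open field). However, its near-identical copy Hspa1a shares reads with it and had a log2 fold change of 0.09, so the value of either is uncertain.

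To ask whether the response depended on CB1 in GABAergic neurons, the same contrast was set beside that of GABA-CB1-WT littermates, from 7 open field and 6 basal libraries, and the difference of the responses was tested. In GABA-CB1-WT mice edgeR called 24 of 15116 genes (0.159%), 23 of them higher (0.152%), including Egr2 (log2 fold change 3.00), Fos (2.34), Fosb (1.53), Egr4 (0.99) and Egr1 (0.90). Of these 24 genes, 23 were also higher in mean in GABA-CB1-KO mice and 14 had an unadjusted p under 0.05 there. For all 24 the response in GABA-CB1-KO mice was the smaller one in size, although these genes were taken for their response in GABA-CB1-WT mice, a choice that by itself favors large values there. The test of the difference called 0 of 15374 genes (0%) in edgeR, with 2237 (14.6%) at an unadjusted p under 0.05, a smallest adjusted p of 0.198, and 62 calls by DESeq2. With the trend of each library with GC content removed, as described below, 1356 genes had an unadjusted p under 0.05. The smallest adjusted p by edgeR was then 0.427.

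For the 4 leading genes the difference between genotypes was closer to 0 without basal replicate 5. That library held the highest basal value of each, so leaving it out raises the response in GABA-CB1-KO mice by construction. The move toward 0 is therefore a description and not a result about genotype. The response of Egr2 was lower in GABA-CB1-KO mice by a log2 difference of -1.37 (95% confidence interval -2.72 to -0.01, adjusted p = 0.34 by edgeR), and by -0.17 (-0.92 to 0.58) without that library. The difference for Fos was -0.85 (-1.89 to 0.19), and -0.20 (-1.01 to 0.61) without it. For Fosb it was -0.53 (-1.23 to 0.18), and -0.07 (-0.54 to 0.40) without it. For Egr1 the values were -0.17 (-0.54 to 0.21) and -0.01 (-0.30 to 0.29). These intervals remained wide for Egr2 and Fos and were narrowest for Egr1.

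**Figure D3:**
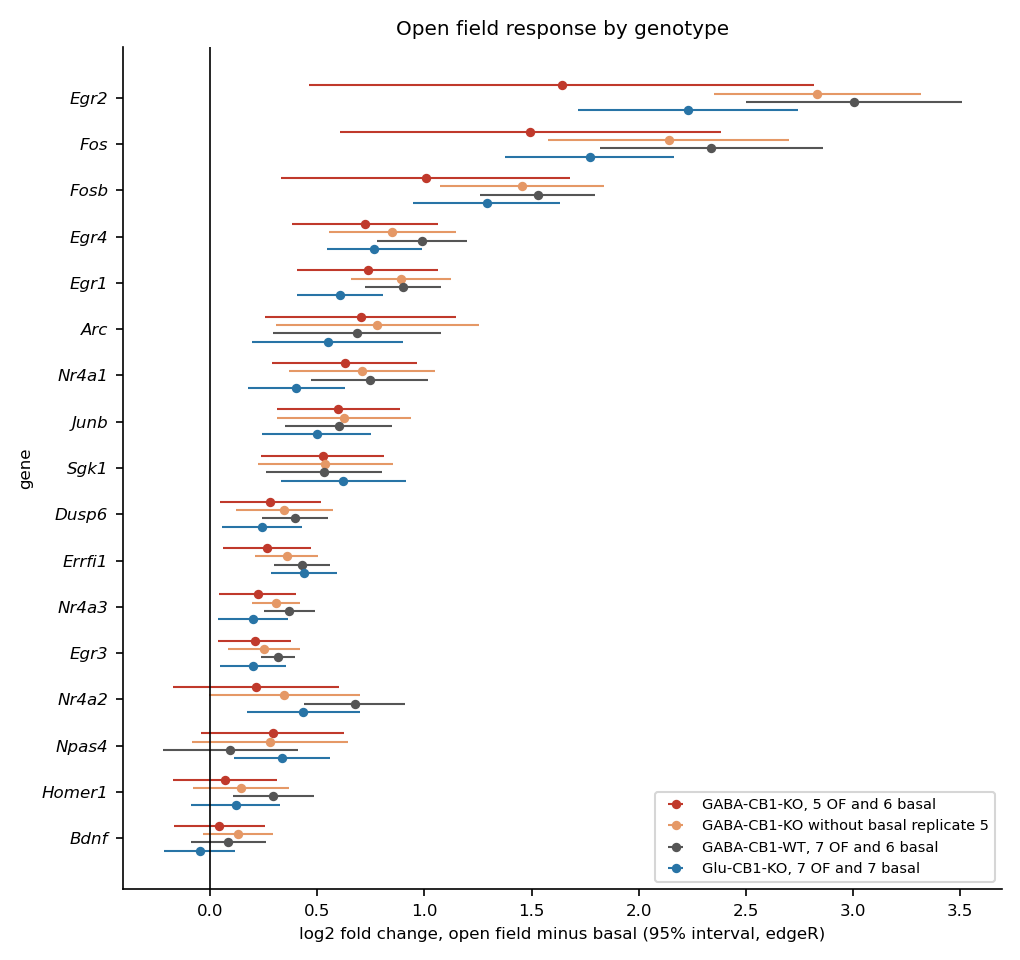
Log2 fold change of open field over basal (points) with its 95% confidence interval (bars) for 17 genes, in GABA-CB1-KO mice with all libraries and without basal replicate 5, in GABA-CB1-WT mice and in Glu-CB1-KO mice. For Egr2 the value of 1.64 in GABA-CB1-KO moved to 2.83 without basal replicate 5, beside 3.00 in GABA-CB1-WT and 2.23 in Glu-CB1-KO.

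The level of Fosb differed from its response. After the open field it was 5.11 to 9.81 CPM in GABA-CB1-KO mice and 10.1 to 16.4 CPM in GABA-CB1-WT mice, and in the basal state, without replicate 5, it was 2.51 to 3.82 CPM and 3.66 to 5.98 CPM. The genotypes thus did not overlap after the open field. At rest they met at the edge of their ranges only without replicate 5, which at 9.07 CPM lay above every GABA-CB1-WT basal library. The difference in level between genotypes was not tested. Nr4a2, an orphan nuclear receptor, was higher after the open field in GABA-CB1-WT mice (log2 fold change 0.67, adjusted p = 0.025 by edgeR) and had 0.21 (95% confidence interval -0.17 to 0.60) in GABA-CB1-KO mice. The difference was -0.46 (adjusted p = 0.34 by edgeR), and -0.33 without basal replicate 5, which held the highest basal value of Nr4a2 at 63.3 CPM.

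In Glu-CB1-KO mice, in which nex1-driven Cre deletes CB1 from glutamatergic neurons, 11 of 15021 genes (0.0732%) were called by edgeR from 7 open field and 7 basal libraries, 8 of them higher (0.0533%). Egr2 (2.23), Fos (1.77), Fosb (1.29), Egr4 (0.77) and Egr1 (0.61) were among the 8. The test of the difference from GABA-CB1-KO mice called 0 of 15389 genes (0%) in edgeR, with 823 (5.35%) at an unadjusted p under 0.05, and 0 by DESeq2. The differences for Egr2 and Fos were -0.59 (95% confidence interval -1.89 to 0.72) and -0.27 (-1.21 to 0.67), and they were 0.61 (-0.16 to 1.37) and 0.37 (-0.32 to 1.06) without basal replicate 5. Their sign thus turned with that library, whose removal raises the response in GABA-CB1-KO mice by construction.

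Genes of the endocannabinoid system itself differed little. Of 15 tested, 12 were higher and 3 lower in mean (median log2 fold change 0.03), and 4 were higher at an unadjusted p under 0.05, beside 6.41% of all genes: Dagla, which makes 2-arachidonoylglycerol, Mgll and Abhd6, which degrade it, and Faah, which degrades anandamide. Dagla held 241, 217, 224, 251 and 226 CPM in open field replicates 1 to 5 and 202 to 213 CPM in the basal libraries, so the groups did not overlap, as in 0.703% of all genes, although the log2 fold change was only 0.16 (95% confidence interval 0.08 to 0.25, adjusted p = 0.27 by edgeR and 0.0304 by DESeq2). In GABA-CB1-WT mice the value was -0.10, and the difference of 0.25 had an adjusted p of 0.21 by edgeR and 0.0691 by DESeq2. The log2 fold change of Cnr1 was -0.13 (95% confidence interval -0.32 to 0.05), and -0.05 without open field replicate 4, which held the lowest level at 100 CPM.

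Receptors of both main transmitters were slightly lower in mean. Of 24 glutamate receptor genes, 16 were lower and 8 higher. At an unadjusted p under 0.05, 6 were lower and 1 higher (Grin2c), beside 5.73% and 6.41% of all genes. The 6 included Gria2, Gria4, Grik1, Grin3a and Grm5. Without open field replicate 4 the counts were 4 lower and 0 higher, beside 4.2% and 4.86% of all genes. Gria4, an AMPA receptor subunit, was measured at 77.7, 84.6, 85.0, 70.6 and 89.1 CPM in open field replicates 1 to 5 and 90.5 to 96.7 CPM in the basal libraries. All open field libraries lay below all basal ones, as in 0.557% of all genes, with a log2 fold change of -0.20 (95% confidence interval -0.30 to -0.09, adjusted p = 0.27 by edgeR). Of 14 GABA receptor genes 13 were lower in mean, with a median of -0.11. At an unadjusted p under 0.05, 4 were lower, among them Gabra2 (-0.19) and Gabrg1 (-0.20), and 0 higher. Without open field replicate 4, only 1 was lower at that threshold. None of these receptor genes passed the adjusted threshold in edgeR.

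Log2 fold changes were related to base composition. Across the 14538 genes with a GC content (96.4% of those tested), the log2 fold change correlated with the GC content of the longest transcript at a Spearman rho of 0.39 in GABA-CB1-KO mice, of -0.33 in GABA-CB1-WT mice and of 0.03 in Glu-CB1-KO mice. The difference of the responses between GABA-CB1-KO and GABA-CB1-WT mice correlated with GC content at a rho of 0.49 over 14816 genes. Genes are not independent replicates, and the correlations are given as a description. In GABA-CB1-KO mice the median log2 fold change was -0.10 in the bin of genes with the least GC and 0.05 in the bin with the most. By library, the correlation of expression with GC was higher in the open field than in the basal group by 0.29, a difference that did not pass the exact permutation test (two-sided p = 0.0736, smallest possible 0.00433). With the GC trend of each library removed, the median of the GABA receptors was -0.05 instead of -0.11, while that of the glutamate receptors was -0.05 both ways. Gria2 was -0.07 instead of -0.17 and Gria4 was -0.16 instead of -0.20. Egr2 (1.62), Fos (1.47), Fosb (0.96) and Egr1 (0.68) moved little.

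**Figure D4:**
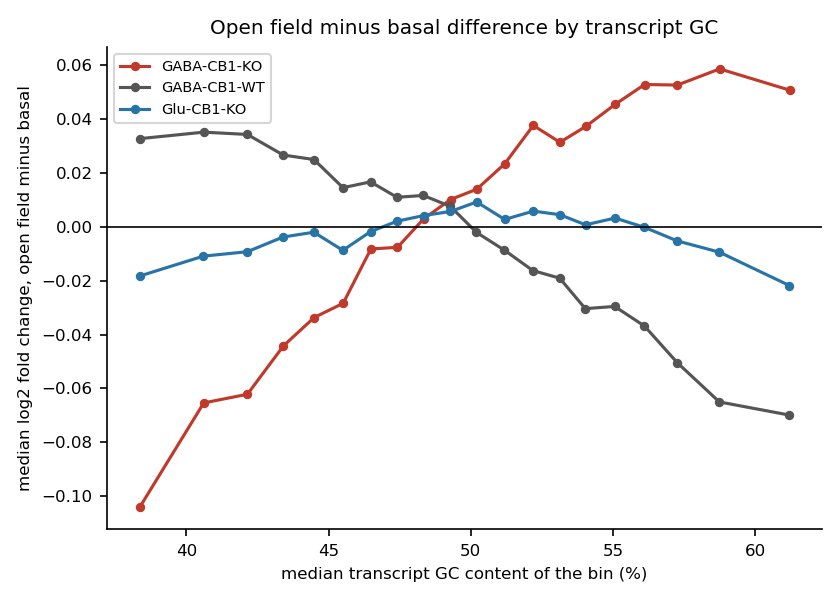
Median log2 fold change of open field over basal in 20 bins of genes by GC content (percent of the longest transcript), for GABA-CB1-KO, GABA-CB1-WT and Glu-CB1-KO mice. The line runs from -0.10 to 0.05 in GABA-CB1-KO mice and in the opposite direction in GABA-CB1-WT mice.

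Of 47 potassium channel genes, 4 were higher (Kcnab2, Kcnh1, Kcnk1 and Kcns2) and 4 lower (Kcna4, Kcnf1, Kcnj3 and Kcnv1) at an unadjusted p under 0.05, shares near the 6.41% and 5.73% of all genes, and the median log2 fold change was -0.03. Kcnab2, a subunit that modifies A-type currents, lay above without overlap, as in 0.703% of all genes (750 to 838 CPM basal, 846 to 901 CPM open field, 0.12). Of 27 genes of neuropeptides and secretory granules, 9 were higher and 18 lower in mean. Only Adcyap1, the precursor of the peptide PACAP, had an unadjusted p under 0.05 (log2 fold change -0.99, 95% confidence interval -1.63 to -0.35), beside 5.73% of all genes that were lower. Its open field values of 1.11, 2.07, 1.75, 1.92 and 1.53 CPM overlapped the basal range of 1.25 to 4.77 CPM, in which replicates 3 and 4 were low.

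Further genes that the study measured by RT-qPCR or took as examples did not pass in edgeR either. Npy (0.02), Sst (-0.06) and Crhbp (-0.0029), which mark classes of interneurons, and Kcnn2 (-0.04), a calcium-activated potassium channel, had intervals that held 0. Rab3b, of synaptic vesicles (-0.16, 95% confidence interval -0.28 to -0.04), and Ldb2, a transcriptional cofactor (-0.31, -0.54 to -0.08), were lower in mean. Sptb, a spectrin, lay at 343 to 353 CPM in the open field and 314 to 339 CPM in the basal libraries. It lay above without overlap, as in 0.703% of all genes (0.09, adjusted p = 0.315 by edgeR). In GABA-CB1-WT mice its log2 fold change was -0.08 (difference 0.17, adjusted p = 0.20 by edgeR and 0.0295 by DESeq2). Grin2b, an NMDA receptor subunit, had a log2 fold change of -0.13 (95% confidence interval -0.84 to 0.57). It was measured at 31 and 42.4 CPM in the libraries with low Xkr4 and at 88.6 to 147 CPM in the other 9. The dentate marker Tdo2 (-0.29) and Adgrl2 (-0.05), formerly Lphn2, a marker of the CA region, did not pass.

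The 63 genes that DESeq2 called are described after their values were seen, and 4 of them were also among the 10 that edgeR called without basal replicate 5 (Egr1, Fmnl1, Otub2 and Gpt2). Recql4, a DNA helicase, was measured at 5.53, 5.85, 6.66, 5.70 and 4.27 CPM in open field replicates 1 to 5 and 3.29 to 3.96 CPM in the basal libraries (log2 fold change 0.62, adjusted p = 0.239 by edgeR and 0.00155 by DESeq2). Cebpa, a transcription factor, held 14.1, 13.4, 13.4, 13.1 and 14.3 CPM after the open field and 10.3 to 12.3 CPM at rest (0.32). In both genes the groups did not overlap. Camkk1, a kinase activated by calcium (0.20), Rcan1, an inhibitor of calcineurin (0.17), and Matn2, a matrix protein (0.27), were also higher without overlap. On the lower side, Cd44, a receptor for hyaluronan, held 2.63, 1.6, 2.28, 1.73 and 2.34 CPM after the open field and 2.95 to 4.73 CPM at rest (-0.87), and Klf11, a zinc finger repressor, held 4.69 to 6.37 CPM after the open field and 6.56 to 8.29 CPM at rest (-0.40). In neither gene did the groups overlap. Over all genes, 0.703% lay above and 0.557% below without overlap. The genes named here without overlap were taken from those DESeq2 called, a choice that by itself favors such separation. Their lack of overlap is therefore a description and not further support for a response. The genes DESeq2 called higher had a median GC content of 56.5%. The median was 43.1% in those it called lower and 49.8% over all genes tested.

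Choroid plexus transcripts separated 1 library rather than the states. All 16 markers tested were higher at an unadjusted p under 0.05 (median log2 fold change 1.93), none passed the adjusted threshold in edgeR, and without open field replicate 4 the median was 0.07. Ttr, a carrier of thyroid hormone secreted by the choroid plexus, was measured at 51.8, 29.7, 31.9, 3847 and 26.9 CPM in open field replicates 1 to 5 and at 18 to 52.7 CPM in the basal libraries. Its log2 fold change was 4.54, and 0.03 without replicate 4. The summed level of the 17 markers of the list was 5513 CPM in that library, 242 to 306 CPM in the other open field libraries and 228 to 331 CPM in the basal ones. No marker was at 0 in all libraries of a group. Markers of meningeal fibroblasts were highest in the same library (228 CPM summed, against 76.6 to 92.1 CPM in the other 4). Leaving it out, Fos was at a log2 fold change of 1.30, Egr2 at 1.55, Fosb at 0.91 and Egr1 at 0.66, so these differences were nearly as large without it.

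**Figure D5:**
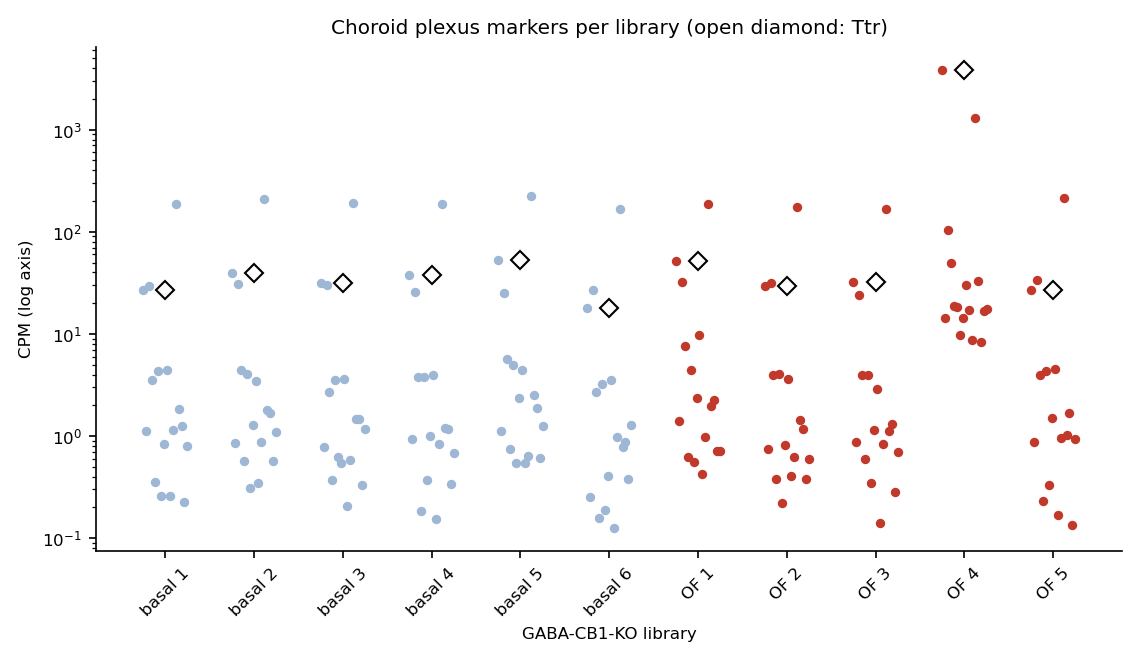
Level (CPM, log axis) of 16 choroid plexus markers in each of the 11 GABA-CB1-KO libraries, with Ttr as a diamond. Open field replicate 4 stands above the other libraries, with Ttr at 3847 CPM against 18 to 52.7 CPM.

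Summed levels of neuronal markers overlapped between the states. Markers of CA1 pyramidal cells summed to 905 to 1134 CPM in the basal and 921 to 1099 CPM in the open field libraries, those of CA3 and CA2 to 614.6 to 684 and 628 to 782 CPM, and those of interneurons to 1328 to 1430 and 1315 to 1401 CPM. Dentate granule markers were present at 271 to 353 and 299 to 350 CPM, so that the tissue was not free of their transcripts by this measure. Whether this RNA came from granule cells was not tested. The study checked purity by another measure, RT-qPCR of Tdo2 and Lphn2 relative to dentate samples. Astrocyte, microglia and oligodendrocyte lists had median log2 fold changes of 0.01, 0.03 and -0.08, and those of ependyma, endothelial and mural cells, thalamus, and subiculum and cortex had 0.31, -0.11, -0.09 and -0.17. Without open field replicate 4 the median of the endothelial and mural list was -0.23, with 4 of 12 lower at an unadjusted p under 0.05 (4.2% of all genes), and that of the meningeal fibroblast list was -0.25 instead of 0.17. The summed meningeal markers were at 90.4 to 113 CPM in the basal libraries, against the 76.6 to 92.1 CPM of the other 4 open field libraries. Of the blood list only 1 gene was tested, at -0.40. Tmem119, a microglial gene, was the 1 marker of all these lists whose groups did not overlap (17.6 to 18.9 CPM basal, 19.5 to 23.9 CPM open field, 0.26). Over all genes, 0.703% lay above and 0.557% below without overlap. The part of these cell types in the differences above was not tested.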

How the data were processed

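RNA of the hippocampal CA region of male mice was sequenced, 1 library per mouse, and groups were taken from the sample labels. Before deposit, the authors made amplified cDNA by the SPIA method (Ovation RNA-seq system v2 of NuGEN), trimmed reads with bbduk, aligned them to mm10 with STAR 2.6.0a and counted them with featureCounts 1.6.2 using a strand setting, with FastQC and MultiQC 1.8 for quality control, per the study's methods and the submitters' processing notes. The deposited values are raw counts of reads on exons for 24421 genes, of which 3596 had no count. No measurement column was left unused. The kit does not mark strand, so reads of overlapping or antisense genes cannot be told apart. The study's text gives the sizes of the GABA-CB1 open field groups the other way round from the labels. The labels were used, and Cnr1 was at knockout levels in every library labelled GABA-CB1-KO.

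The 5 open field and 6 basal GABA-CB1-KO libraries were compared with edgeR 4.0.16 (quasi-likelihood test, R 4.3.3), TMM normalization, filterByExpr by group (15081 genes kept) and Benjamini-Hochberg adjustment over all genes, at a threshold of 0.05, two-sided. The GABA-CB1-WT and Glu-CB1-KO contrasts were fitted the same way, and differences of responses by a contrast of a 4-group model. Standard errors were derived from the F statistic. DESeq2 1.42.0 was an alternative. Principal components used log2 CPM with a prior count of 2. GC content is that of the longest transcript, and a trend over 20 bins was removed per library by an offset in 1 alternative. Figures were drawn with matplotlib 3.10.9 in Python 3.11.15. Scripts were tested on simulated data. Libraries held 25892654 to 32310409 counts, without molecular identifiers, so counting error is a lower limit of the error. Over 25 pairs of libraries within a group the lowest chi-square per degree of freedom was 2.59, so none was a duplicate. The p-values measure the spread between these mice.

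The libraries, gene lists and markers were chosen with earlier results of these data known. Named by rule were called genes (none in the comparison), 11 activity and stress genes, Cnr1, genes the study measured or gave as examples, and choroid plexus markers. Other genes, among them those called by an alternative, were chosen after their values were seen. Some receptor genes are not reported here by name. The closing section gives the alternatives tried. Leaving out basal replicate 5 with open field replicate 4, leaving out the libraries with low Xkr4 and the GC step were chosen after seeing the data.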

Additional observations from a re-analysis of the deposited data

Results flagged for a closer look

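Within the 11 GABA-CB1-KO libraries, 102 tests of the highest and lowest value of a gene in a group against its other values singled out 28 values. Such a test singles out about 1 in 20 groups by chance. The genes tested include choroid plexus markers and genes called once basal replicate 5 was left out, a choice that fixes much of where the values fall. Of the 28, 9 were in basal replicate 5, 16 in open field replicate 4 and 3 in other libraries.

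Basal replicate 5 lay far above the other 5 basal libraries in 4 immediate early genes that edgeR called once it was left out. It held Fos at 9.65 CPM (next highest 2.88), Fosb at 9.07 CPM (3.82), Egr2 at 9.71 CPM (1.47) and Egr1 at 152 CPM (102). It also stood apart in Nr4a3 (174 CPM, next 135), Bdnf (52.8 CPM, next 41.4), Pfkfb3 (67.2 CPM, next 56.2), Prkab2 (81.3 CPM, next 68.4) and Fmnl1 (144 CPM, next 130). Its Ttr (52.7 CPM) and summed oligodendrocyte markers (5399.6 CPM) were the highest of the basal group, and its summed CA1 markers (907 CPM) were near the lowest (905 CPM). Their part in the result was not tested.

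Open field replicate 4 stood apart in 16 choroid plexus markers. It held Ttr at 3847 CPM, Enpp2 at 1295 CPM and Kl at 105 CPM. Clic6 (49.998 CPM), F5 (33.2 CPM), Prlr (30.1 CPM), Kcnj13 (18.6 CPM), Sostdc1 (18.2 CPM), Cldn2 (17.4 CPM), Slc4a5 (17.1 CPM) and Kcne2 (16.8 CPM) followed. Folr1 (14.2 CPM), Otx2 (14.2 CPM), Aqp1 (9.71 CPM), Col8a1 (8.70 CPM) and Calml4 (8.34 CPM) completed them. In the rest of the series 3 libraries, 1 each among the Glu-CB1-KO basal, Glu-CB1-KO open field and GABA-CB1-WT basal groups, held Ttr at 567, 233 and 1388 CPM.

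Single values in other libraries were a low Per1 in basal replicate 3 (59.3 CPM, next 86.1), a low Grin2b in basal replicate 2 (31 CPM, next 111) and a high Sptb in open field replicate 5 (353 CPM, next 345).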

How the results depend on the processing

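The count of 0 calls by edgeR in GABA-CB1-KO mice held with other size factors, other filters, the animal number range as a covariate and removal of the GC trend, and with the libraries of low Xkr4 left out or marked. It became 63 with DESeq2, 11 with all 48 libraries in a fit, 14 with the 24 of the line, 9 without basal replicate 5 and open field replicate 4, and 12 with the GC trend removed and basal replicate 5 left out. Leaving out 1 library at a time gave 0 to 10, with 10 only without basal replicate 5 and 1 (Recql4) without open field replicate 5. In GABA-CB1-WT mice the 24 calls became 215 with DESeq2, 53 with all 48 libraries and 54 with the GC trend removed, and 9 to 53 without 1 library. In Glu-CB1-KO mice the 11 calls became 171 with DESeq2, 181 with all 48 libraries, 47 with the 24 of the line and 5 with the animal number range, and 4 to 110 without 1 library. The difference from GABA-CB1-WT was 62 with DESeq2 and 0 to 1 without 1 library, and that from Glu-CB1-KO was 0 to 0. The cause of these moves was not tested.

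Replicate numbers did not pair the mice: the deviations of same-numbered libraries correlated at 0.03, -0.24, -0.16, 0.02 and 0.04. With the replicate number as a block, 0 genes were called in GABA-CB1-KO mice (1114 at an unadjusted p under 0.05), 50 in GABA-CB1-WT and 13 in Glu-CB1-KO mice.

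Of 51 genes followed over 24 settings, 38 kept their sign in all that gave a value, and 12 were called in some. Aqp1, Folr1, Kcne2, Kcnj13 and Slc4a5 had too few counts for the filter of 10 counts in every library, and Slc4a5 also for some other settings. Signs turned near 0 for Bdnf (-0.017 to 0.13 without 1 library), Homer1 (-0.015 to 0.14), Kcnn2 (-0.067 to 0.0057), Adgrl2 (-0.13 to 0.021), Crhbp (-0.13 to 0.057, 0.030 without basal replicate 5 and open field replicate 4, 0.024 without the low Xkr4 libraries) and Npy (-0.054 to 0.064, -6.4e-05 with the animal number range, -0.015 with the GC trend removed, -3.2e-05 with basal replicate 5 left out as well). Grin2b turned to 0.071 with the animal number range (-0.33 to 0.061 without 1 library). Choroid plexus markers turned only without open field replicate 4 among the single libraries, with ranges of -0.043 to 2.87 for Aqp1, -0.066 to 1.27 for Enpp2, -0.20 to 2.56 for F5, -0.11 to 3.47 for Kcne2 and -0.50 to 2.25 for Cldn2. Without basal replicate 5 as well, Col8a1 was -0.070, Enpp2 -0.020, F5 -0.016 and Cldn2 -0.44. With 5 and 6 mice and 1 basal library at open field levels, small differences were beyond the precision of these data.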
